A study of Mus musculus with 35 samples.

Results

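Amacrine and horizontal cells are the inhibitory interneurons of the retina. The 10 genes described here, Ptf1a, Foxn4, Prox1, Onecut1, Onecut2, Lhx1, Tfap2a, Tfap2b, Gad1 and Slc6a9, were chosen because they specify these cells or carry their transmitter, and they are 10 of the 14706 protein-coding genes whose starts could be placed on the peak lists. Horizontal and amacrine cells arise from retinal progenitor cells before and around birth. The forkhead factor Foxn4 acts in the progenitors and switches on Ptf1a, a basic helix-loop-helix factor required for both cell types. Onecut1, Onecut2, Prox1 and Lhx1 encode homeodomain factors of the horizontal cell lineage, and Tfap2a and Tfap2b encode AP-2 factors of postmitotic amacrine and horizontal cells. Gad1 encodes an enzyme that makes GABA. Slc6a9 encodes the glycine transporter of glycinergic amacrine cells and is also used by glia. The genes lie on chromosomes 1 (Prox1, Tfap2b), 2 (Ptf1a, Gad1), 4 (Slc6a9), 5 (Foxn4), 9 (Onecut1), 11 (Lhx1), 13 (Tfap2a) and 18 (Onecut2).

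Chromatin of whole mouse retinae was examined by ChIP-Seq. Wild-type retinae gave 2 libraries for each of H3K4me3, H3K27Ac and H3K27me3 at postnatal day 0 (P0), P14 and P21. At P12, wild-type retinae gave 1 library each for H3K4me3 and H3K27Ac and 2 for H3K27me3, and Brg1-deficient retinae (labelled BRG1 -/-) gave 2 for H3K27Ac and 1 for each of the other marks. For Brg1 there was 1 library, made with an anti-FLAG antibody from P0 retinae of pups whose Brg1 carries a FLAG tag by knock-in. The Brg1-deficient mice carried Chx10-Cre and Brg1 Lox/Lox alleles. Chx10-Cre acts in retinal progenitor cells in a mosaic pattern, so wild-type cells remained in these retinae, and small-eyed animals were taken by preference. The study calls its duplicate libraries biological replicates, and the labels do not say which animals they came from. In whole retinae, fewer cells of a type and less signal per cell cannot be told apart. Read depth is unknown.

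H3K4me3 marks promoters, H3K27Ac marks active promoters and enhancers, and H3K27me3 is laid down by Polycomb complexes at silent genes. Many developmental regulators carry H3K4me3 and H3K27me3 together in a mixed tissue. Brg1 (Smarca4) is the ATPase of the BAF chromatin remodelling complexes. The height of a peak is its deposited fold enrichment over background. A gene was given the height of the highest peak within 2 kb of any of its starts, or 0 where a library had none. Heights of single libraries are given as deposited. The limma differences are on heights scaled by a factor per library, so overlap or spread of the deposited heights need not hold after scaling. Distances are from the first start, the one with the lowest coordinate, with minus signs upstream of it in the direction of the gene.

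The libraries differed in depth of calling. The H3K4me3 lists held 18534 to 24124 peaks, the H3K27Ac lists 17433 to 50005, the H3K27me3 lists 12188 to 30996 islands and the Brg1 list 50861 peaks. For H3K27Ac, replicate 1 of P14 (17433 peaks) and of P21 (18718) was much shorter than replicate 2 (50005 and 45833), so a missing peak in replicate 1 says less. For H3K4me3, the median height over starts with a peak was 62.3 in replicate 1 of P21 and 23.8 in replicate 2. Of 6 placed rod and cone genes, 1 had a start peak of H3K27Ac in both libraries at P0 and 5 at P14 and at P21. None of the 3 lens, 2 pigment epithelium, 1 muscle and 2 liver genes placed had one at any of these stages. The 3 placed ganglion cell genes also had none, and of the 4 bipolar cell genes placed 1 had one at each stage.

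The sequence just upstream of 4 starts that the results turn on is shown, those of the early factors Ptf1a and Foxn4, the AP-2 gene Tfap2b and the transmitter gene Gad1, to show how their base composition differs. The 250 bases before the start are given 5′ to 3′ on the strand of the gene, from RefSeq (GRCm38.p6), with CG dinucleotides in capitals.
Ptf1a (chr2:19445413-19445662, plus strand): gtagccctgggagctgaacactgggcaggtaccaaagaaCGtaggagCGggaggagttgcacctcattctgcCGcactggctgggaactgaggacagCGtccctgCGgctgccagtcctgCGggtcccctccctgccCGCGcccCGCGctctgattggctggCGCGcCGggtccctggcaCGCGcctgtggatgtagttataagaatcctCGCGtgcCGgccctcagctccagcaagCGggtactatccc
Foxn4 (chr5:114273762-114274011, minus strand): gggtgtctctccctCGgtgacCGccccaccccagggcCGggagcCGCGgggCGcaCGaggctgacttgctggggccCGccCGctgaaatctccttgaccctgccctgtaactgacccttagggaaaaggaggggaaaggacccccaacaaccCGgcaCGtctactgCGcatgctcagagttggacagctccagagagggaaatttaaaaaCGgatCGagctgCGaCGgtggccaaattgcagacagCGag
Tfap2b (chr1:19211804-19212053, plus strand): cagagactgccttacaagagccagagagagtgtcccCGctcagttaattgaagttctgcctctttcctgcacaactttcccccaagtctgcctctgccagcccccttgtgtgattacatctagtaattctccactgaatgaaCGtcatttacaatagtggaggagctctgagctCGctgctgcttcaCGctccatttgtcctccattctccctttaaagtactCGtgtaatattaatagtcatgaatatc
Gad1 (chr2:70561879-70562128, plus strand): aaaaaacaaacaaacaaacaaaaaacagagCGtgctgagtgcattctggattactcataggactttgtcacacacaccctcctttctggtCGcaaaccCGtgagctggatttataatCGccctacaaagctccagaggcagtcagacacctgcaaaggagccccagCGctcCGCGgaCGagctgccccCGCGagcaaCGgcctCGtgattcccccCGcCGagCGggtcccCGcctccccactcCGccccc
Ptf1a held 19 CG dinucleotides in this stretch, Foxn4 and Gad1 17 each and Tfap2b 5, against a median of 6 over 32851 RefSeq promoters of the same length. The observed to expected CG ratio was 0.70 for Ptf1a, 0.69 for Foxn4, 0.86 for Gad1 and 0.39 for Tfap2b, beside a median of 0.37. The annotated gene begins at -3146 bp from the start used for Tfap2b, at -826 bp for Gad1 and at -657 bp for Foxn4. The stretches of these genes thus lie inside the annotated gene, and only that of Ptf1a lies before it. Among the other members, the upstream stretch of Onecut1 had the highest count, 31 CG dinucleotides. On either strand, TATAAA was found in the stretch of Gad1 and not in those of the other 3 genes shown (12.4% of all promoters hold it). CCAAT was found in the stretch of Ptf1a alone of these 4 (33.8% of all), and GGGCGG in those of Foxn4 and Gad1 (32.7% of all). Foxn4 and Ptf1a held no CANNTG, the E-box core, which 66.2% of all promoters hold. TAATTA was found in none of the 4 (4.84% of all). No match of one motif overlapped a match of another in these 4 stretches. A match is a description of these letters only. The promoter table holds a row for 9 of the 10 genes, and no sequence is shown for Onecut2. The start of Onecut2 was taken as the lower end of the gene, read on the plus strand, and its values at the start rest on this.

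All 10 genes carried an H3K4me3 peak at the start in both P0 libraries, a state shared by 66.5% of all placed starts. At P14 all 10 still had one in both libraries (65.0% of all starts), and at P21 9 had one, Lhx1 having no peak in replicate 2 (63.9%). The height of these peaks fell between P0 and P14 at Foxn4 and Lhx1 and between P0 and P21 at Foxn4, Lhx1, Tfap2a and Tfap2b. Over all 9899 starts tested, 2.88% were called lower and 0.919% higher at P14, and 7.94% lower and 1.04% higher at P21 (limma on log2 heights with a pseudocount of 3.80, Benjamini-Hochberg adjusted p under 0.05). The median log2 difference of the 10 genes was -0.47 at P14 and -0.85 at P21, beside -0.03 and -0.09 over all starts tested. At both stages 9 of the 10 estimates were below 0. Without scaling, of the members 0 were called at P14 and 1, Lhx1, at P21 (limma, adjusted p = 0.00247). Without the filter, which needs a peak in at least 2 of the 6 libraries, 0 were called at either stage.

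**Figure D1:**
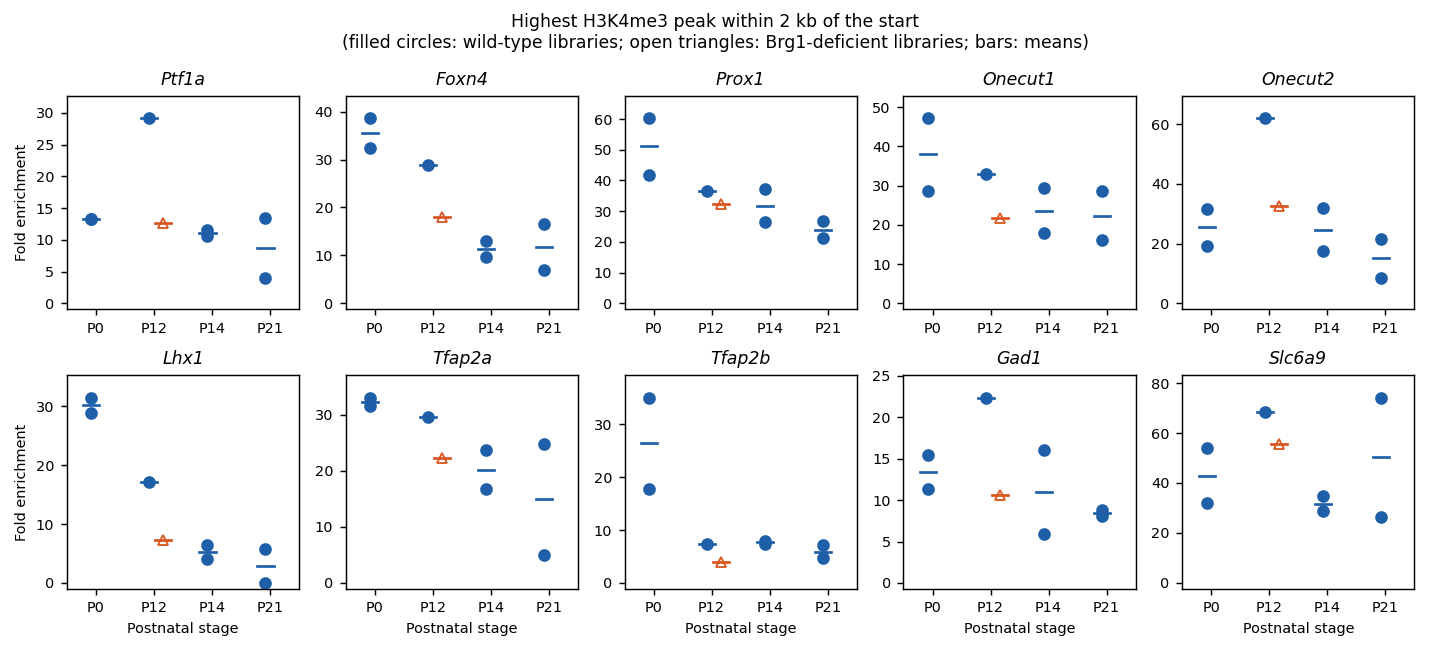
Height (fold enrichment, linear axis, own scale for each gene) of the highest H3K4me3 peak within 2 kb of the start in each library by stage; filled circles are wild-type libraries, open triangles the Brg1-deficient P12 library, and bars the means. Foxn4 lay at 38.7 and 32.4 at P0 and between 6.92 and 16.6 at P14 and P21.

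Among the early factors, the H3K4me3 height at Foxn4 was 38.7 and 32.4 at P0, 28.9 in the wild-type P12 library, 9.64 and 13.0 at P14, and 16.6 and 6.92 at P21. Every P14 and P21 value lay below both P0 values. On the log2 scale it fell by 1.26 ± 0.30 (SE) at P14 (limma, adjusted p = 0.0304) and by 1.44 ± 0.30 at P21 (adjusted p = 0.00779). The P14 call was lost without any 1 of the 4 libraries compared, with adjusted p between 0.0799 and 0.224, and the P21 call without P0 replicate 1 (adjusted p = 0.0601). Ptf1a, one step further in the same lineage, had 13.2 and 13.3 at P0, 29.2 at P12, 10.6 and 11.5 at P14, and 13.4 and 3.95 at P21. Before scaling its groups overlapped at P21. After scaling its mean was 13.4 at P0 and 7.34 at P21. Its differences were -0.08 ± 0.29 at P14 and -0.63 ± 0.29 at P21 (limma, adjusted p = 0.935 and 0.254).

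Of the homeodomain genes, Lhx1, needed for horizontal cells to reach their layer, changed most. Its height was 28.8 and 31.5 at P0, 17.1 at P12, 4.10 and 6.48 at P14, and 5.74 and 0 at P21. The groups were well apart at both stages. The log2 difference was -1.82 ± 0.35 at P14 (limma, adjusted p = 0.009) and -2.70 ± 0.35 at P21 (adjusted p = 0.000405), and the P14 call was lost without P14 replicate 2 (adjusted p = 0.0921). Prox1 had 41.9 and 60.4 at P0, 37.1 and 26.5 at P14, and 26.8 and 21.2 at P21, which put all later values below both P0 values, with a difference at P21 of -0.97 ± 0.36 that did not pass (limma, adjusted p = 0.124). Onecut1 had 28.7 and 47.3 at P0, 17.9 and 29.4 at P14, and 28.6 and 16.1 at P21. Onecut2 had 31.6 and 19.2, then 17.5 and 31.8, then 21.5 and 8.57. Neither Onecut gene passed at either stage (differences between -0.73 and 0.09, limma, adjusted p between 0.258 and 0.94).

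The AP-2 genes differed from P0 at P21. Tfap2b had 17.8 and 35.1 at P0, 7.33 at P12, 7.47 and 7.89 at P14, and 7.10 and 4.64 at P21, so all later libraries were below both P0 libraries. It fell by 1.60 ± 0.34 at P21 (limma, adjusted p = 0.00895), and its P14 difference of -1.23 ± 0.34 missed the threshold (adjusted p = 0.0614), which it passed with peaks within 1 kb (-2.39, adjusted p = 0.00245), with a peak required in every library (0.0193) and without P0 replicate 1 (0.0347). Tfap2a had 33.1 and 31.5 at P0, 16.7 and 23.7 at P14, and 24.8 and 5.03 at P21. It fell by 1.27 ± 0.32 at P21 (limma, adjusted p = 0.0235), where its replicates were far apart before scaling. At P14 its difference was -0.47 ± 0.32 (limma, adjusted p = 0.583), and with peaks within 1 kb -1.59 (adjusted p = 0.0173). The P21 call of Tfap2a was lost without P0 replicate 1, P0 replicate 2 or P21 replicate 2 (adjusted p = 0.0985, 0.0823 and 0.207), and that of Tfap2b without P0 replicate 2 or P21 replicate 1 (0.12 and 0.0823).

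The transmitter genes did not pass at either stage. Gad1 had 15.4 and 11.4 at P0, 22.4 at P12, 5.94 and 16 at P14, and 8.79 and 8.06 at P21, with a difference of -0.47 ± 0.39 at P21 (limma, adjusted p = 0.643). Slc6a9 had 31.8 and 53.9 at P0, 68.4 at P12, 34.7 and 28.7 at P14, and 74.2 and 26.2 at P21, with a difference of 0.07 ± 0.32 (adjusted p = 0.959). The plot of H3K4me3 heights by stage shows the overlap of its groups before scaling.

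The marked stretch around the start was also shorter after P0. The length under H3K4me3 peaks within 5 kb of the first start was lower in both P14 libraries than in both P0 libraries at 9 of the 10 genes, against 55.1% of the 9835 starts marked in both P0 libraries, and at P21 at 8 of 10, against 28.0%. Averaged over the 2 libraries, the members had a median of 54.0% of their P0 length left at P14 and 49.8% at P21, where all starts had 89.6% and 98.7%. The members were longer at P0, with medians of 3.99 and 5.29 kb against 1.77 and 1.92 kb over all marked starts. Starts of like P0 length were not compared. No test was made on these lengths.

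**Figure D2:**
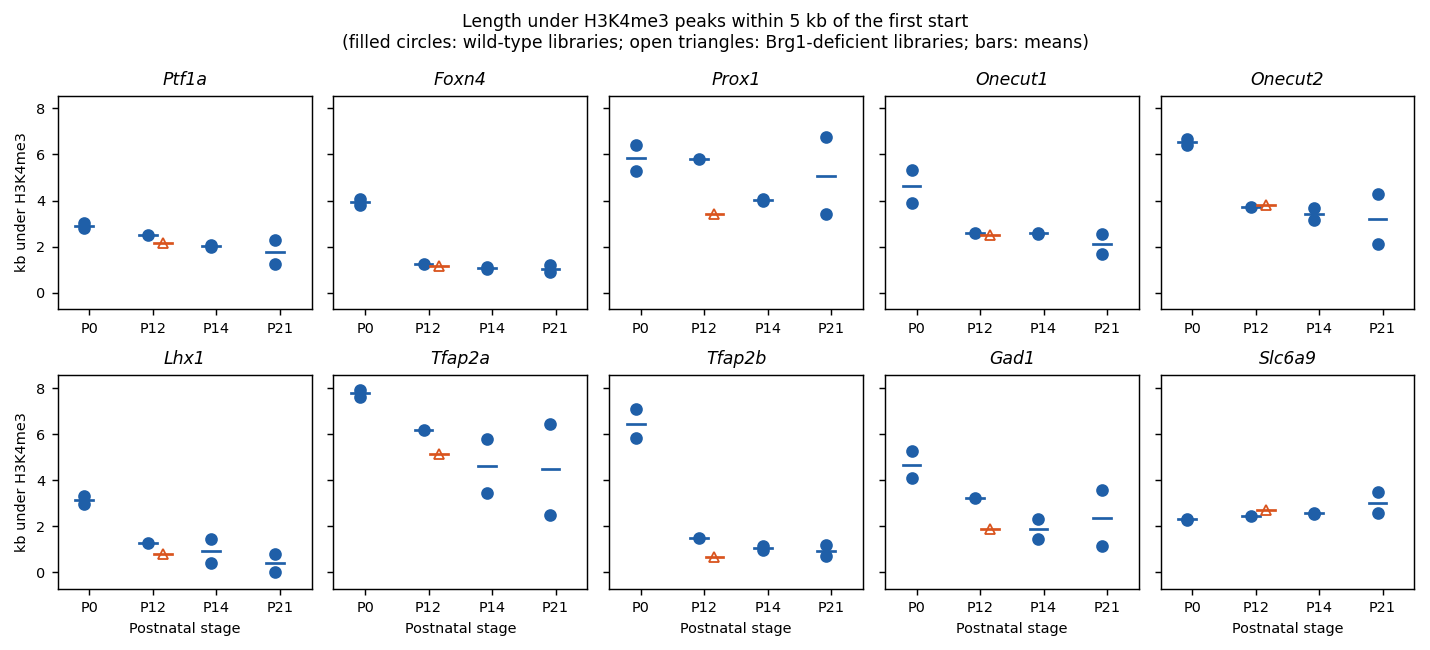
Length in kb under H3K4me3 peaks in the 10 kb around the first start of each gene, by stage and library, on a common linear axis; filled circles are wild-type libraries, open triangles the Brg1-deficient P12 library, and bars the means. Tfap2b covered 5.83 and 7.07 kb at P0 and at most 1.48 kb in the later libraries, whereas Slc6a9 lay between 2.29 and 3.48 kb.

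At P0 the longest stretches were those of Tfap2a (7.62 and 7.92 kb), Onecut2 (6.39 and 6.69 kb) and Tfap2b (5.83 and 7.07 kb), where the median over all marked starts was 1.77 and 1.92 kb. Tfap2b had 0.972 and 1.16 kb at P14 and 1.17 and 0.709 kb at P21. Foxn4 had 3.82 and 4.08 kb at P0, 1.01 and 1.1 kb at P14 and 1.2 and 0.892 kb at P21. The wild-type P12 library was also below both P0 libraries, at 1.48 kb for Tfap2b and 1.25 kb for Foxn4. Onecut2 and Tfap2a had more left, with means of 3.21 and 4.47 kb at P21. Prox1 had 5.28 and 6.39 kb at P0, 4.07 and 4.0 kb at P14, and 6.74 and 3.43 kb at P21, so that its P0 and P21 groups overlapped. Slc6a9 had 2.33 and 2.29 kb at P0, 2.59 and 2.53 kb at P14 and 3.48 and 2.58 kb at P21, and it was longer in every later library.

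Acetylation at the start was rarer than H3K4me3. At P0, 6 of the 10 genes, Ptf1a, Foxn4, Prox1, Onecut2, Tfap2b and Slc6a9, had an H3K27Ac peak in both libraries (53.4% of all starts), and at P14 and at P21 2, Prox1 and Slc6a9, did (40.7% and 34.5% of all starts). Lhx1 and Tfap2a had no start peak in any of the 9 H3K27Ac libraries and did not enter the fit, which needs a peak in 2 of the 6 wild-type libraries of P0, P14 and P21. No start was called at P14 or at P21, among the members or among all 9096 tested (limma, lowest adjusted p = 0.36 and 0.223, 0% called). At an unadjusted p under 0.05 the fit gave 655 starts at P14 and 913 at P21, of which 3 and 4 were members, and other settings called up to 49 of all starts but no member.

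**Figure D3:**
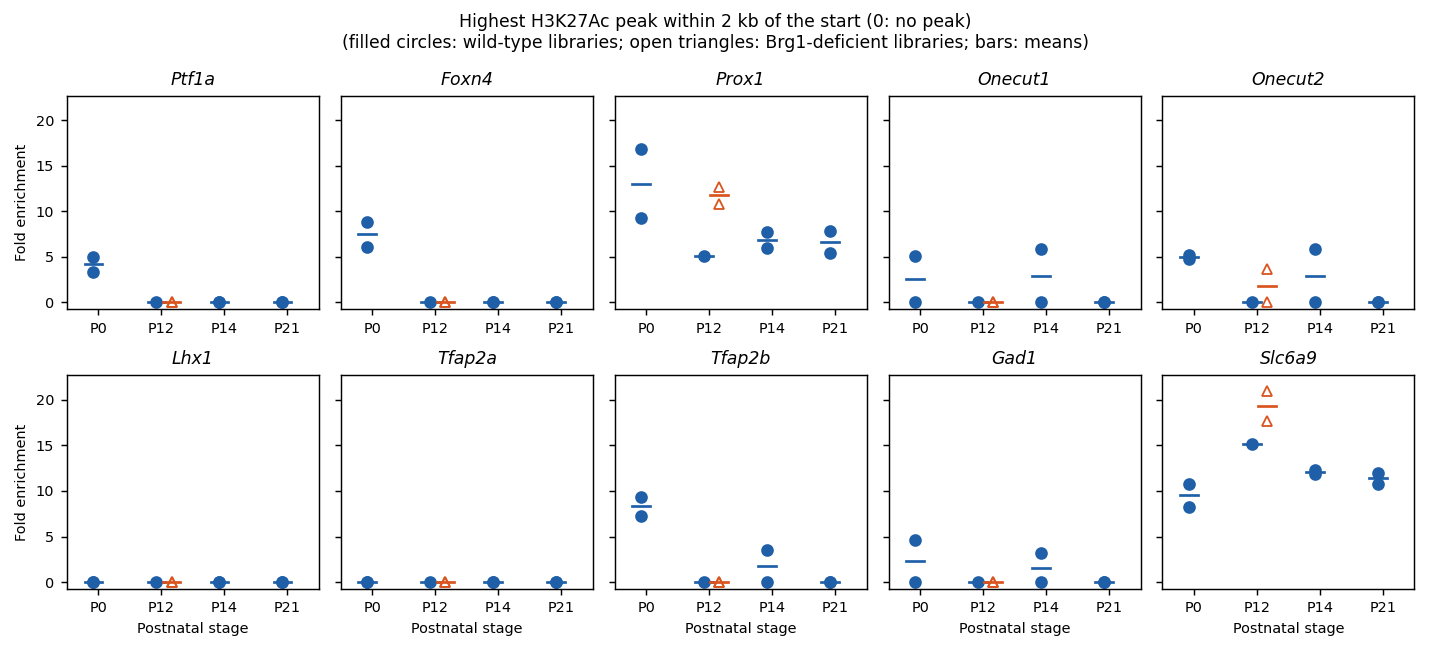
Height (fold enrichment, common linear axis) of the highest H3K27Ac peak within 2 kb of the start in each library, with 0 where there was no peak; filled circles are wild-type libraries, open triangles Brg1-deficient P12 libraries, and bars the means. Foxn4 and Ptf1a had start peaks at P0 and in no later library, whereas Prox1 and Slc6a9 had one in every library.

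Foxn4 had H3K27Ac heights of 6.12 and 8.85 at P0 and no peak in any of the 7 libraries from P12 to P21, the deep lists of P14 and P21 included (limma, -1.74 ± 0.33 at P21, adjusted p = 0.223). Foxn4 and Ptf1a entered the fit through their P0 peaks alone, so only a fall was possible for them. Ptf1a had 3.30 and 5.03 at P0 and no later peak within 2 kb, while 2.66 kb into the locus a region had 4.04 in P14 replicate 2 and 4.21 in 1 Brg1-deficient P12 library. Tfap2b had 9.34 and 7.30 at P0, 3.49 in replicate 2 of P14, and none in the other later libraries. These 3 genes, and Onecut2 as well, had a peak in both P0 libraries and in neither library of P21. Over all starts the share with a peak in both libraries also fell, from 53.4% at P0 to 34.5% at P21. How many of all starts lost both peaks was not counted, so no excess among the members can be read from this. The placed progenitor genes, Sox2 and Sfrp2, had the same order, with a median H3K27Ac height over both genes of 11.3 at P0, 2.55 at P14 and 0 at P21, and the part of a changed cell makeup was not tested.

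Onecut2 had 5.21 and 4.75 at P0 and 5.91 in P14 replicate 2, with no peak in P14 replicate 1 or at P21. Onecut1 had a peak only in replicate 2 of P0 (5.11) and of P14 (5.81), and Gad1 only in replicate 1 of P0 (4.63) and replicate 2 of P14 (3.20). Prox1 had 9.26 and 16.8 at P0, 6.0 and 7.76 at P14 and 5.46 and 7.79 at P21. Every later value was below both at P0, but only before scaling was this checked. After scaling its means were 12.5 at P0 and 9.07 at P21 (limma, -0.34 ± 0.40 at P21, adjusted p = 0.714). Slc6a9 had 10.8 and 8.22 at P0, 12 and 11.9 at P14, and 12 and 10.8 at P21.

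H3K27me3 separated the genes into 3 kinds. At 7 of the 10, Ptf1a, Onecut1, Onecut2, Lhx1, Tfap2a, Tfap2b and Gad1, islands covered 100% of the 4 kb around the start in all 9 libraries. At P0, 15.3% of all starts had at least 50% of the 4 kb covered in both libraries. Since the same 7 starts carried H3K4me3 in both P0 libraries, both marks lay over them together at P0, as at 12.6% of all starts. The islands over these starts were long. At P0 they measured 20 to 48.8 kb, the shortest at Gad1 and the longest at Tfap2b, where the median over all covered starts was 8.80 and 8.40 kb.

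Foxn4 and Prox1 were covered at P14 and P21 but not in both P0 libraries. At Foxn4 islands covered 0% and 62.9% of the 4 kb at P0 and 100% in all 4 libraries of P14 and P21. The island over its start was 3.60 kb long in P0 replicate 2, 12.6 and 19.8 kb at P14, and 14.8 and 12.4 kb at P21. At Prox1, averaged over its 2 starts, 25.5% and 30.5% were covered at P0, 100% in both P14 libraries, and 100% and 97.1% at P21. At P0 the nearest island ended upstream of the first Prox1 start, at -1635 and -1435 bp. The second start was placed at -1312 bp. Since the members' offsets differed by up to 295 bp, whether the P0 island reached that start is uncertain. At P14 and P21 an island of 11 to 18.4 kb reached across both starts. Coverage of at least 50% in all P14 and P21 libraries but not in both P0 libraries was found at these 2 genes and at 2.82% of all starts. At P14 and at P21 9 of the 10 genes were covered (16% and 16.4% of all starts). Slc6a9 was the exception, with 0% in all 9 libraries, and no island lay within 20 kb of the gene. The lists differ in length (12188 and 20743 islands at P0, 15995 and 30996 at P14), and the part of this in the differences was not tested.

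**Figure D4:**
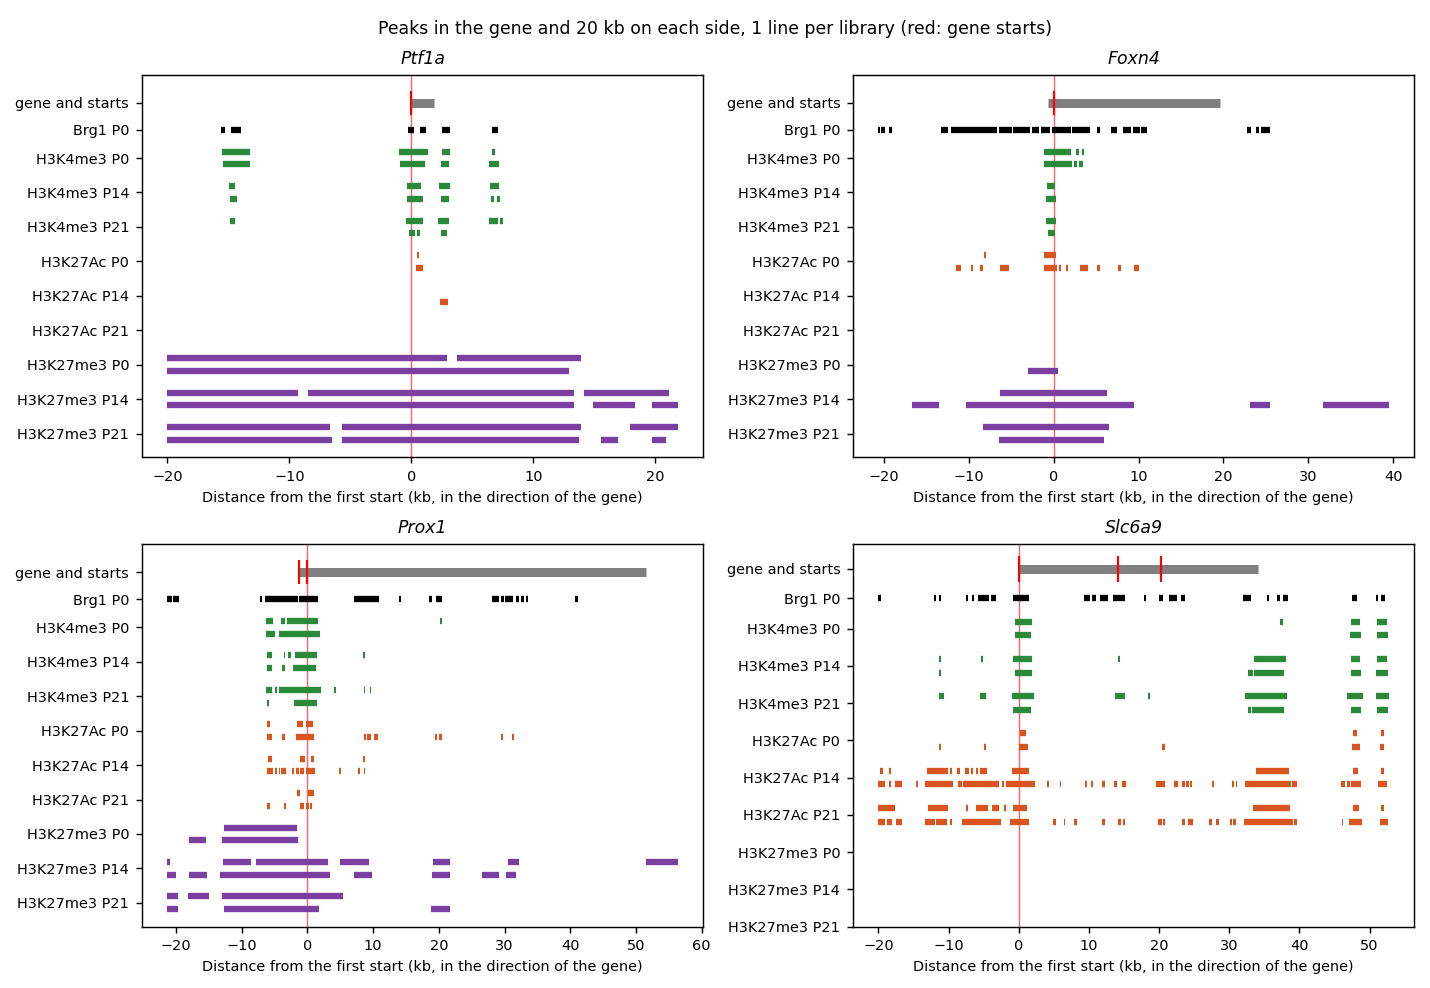
Peaks and islands at Ptf1a, Foxn4, Prox1 and Slc6a9 in the gene and 20 kb on each side, as distance in kb from the first start, with 1 line for each library of P0, P14 and P21; grey bars are genes and red lines starts. At Foxn4 the H3K27Ac peaks of P0 were absent at P14 and P21, where H3K27me3 islands of 12.4 to 19.8 kb lay over the start, and at Slc6a9 H3K27Ac was broader at P14 and P21 with no H3K27me3.

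Around Ptf1a the marks extended beyond the start. A further H3K4me3 peak, singled out after its values were seen, lay about 14 kb upstream (chr2:19351836-19354055, mm9, in P0 replicate 2). It covered 2.30 and 2.22 kb at P0, with heights of 10.1 and 22.0, 0.433 and 0.622 kb at P14, and 0.373 kb and none at P21. In P0 replicate 2 it was higher than the peak at the start (13.3). At P0 2 Brg1 peaks overlapped it, both over H3K27me3. Islands covered 78.7% to 79.1% of the Ptf1a gene and its flanks at P0 and 84.9% to 94.4% at P14 and P21.

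In the genes and 20 kb on each side, peaks of the 6 wild-type H3K27Ac libraries merged into 77 regions, of which 34 had a peak in at least 2 libraries and were tested. Slc6a9 held 17 of these, Prox1 and Tfap2a 4 each, Onecut1 and Onecut2 2 each, and the other 5 genes 1 each. No region passed at P14 or P21, of the members or of the 33340 in the genome (limma, lowest adjusted p = 0.114 and 0.0547, 0% called), although 5480 and 8870 regions had an unadjusted p under 0.05, 9 and 11 of them members' regions. Of the other settings at P21, 6 called between 2 and 9 of the members' regions and the others called 0. The median log2 difference of the 34 regions was 0.36 at P14 and 0.26 at P21, beside 0.30 and 0.45 over all regions tested.

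The tested regions at Slc6a9 were spread from -21.3 to 51.9 kb, and the 3 with the lowest p at P21 are given here. A region centred at -11.4 kb from the first start (chr4:117494480-117498493, mm9) had heights of 0 and 2.90 at P0, 13.3 and 20.6 at P14, and 8.53 and 11.3 at P21. Its P0 values lay below all others, with a difference of 1.95 ± 0.46 at P21 (limma, adjusted p = 0.056). Another at -18.3 kb (chr4:117488989-117490184) had 0 and 0 at P0, 4.08 and 5.62 at P14 and 4.90 and 7.32 at P21 (limma, 1.86 ± 0.36, adjusted p = 0.0547). The third lay 35.9 kb from the first start, over the end of the gene (chr4:117539910-117547545), with 0 and 0 at P0, 11.7 and 13.3 at P14, and 9.85 and 9.0 at P21 (limma, 2.38 ± 0.45, adjusted p = 0.0547). The regions at -18.3 and 35.9 kb had no P0 peak and entered the fit through P14 and P21 alone. Their fits could thus show only a rise and add no support beyond the heights. The region at 35.9 kb also spans the neighbouring gene Ccdc24, whose start lies 37.2 kb from the first Slc6a9 start. The regions farther downstream, 47.9 and 51.9 kb from the first start, had a peak in all 6 libraries and lie at the starts of B4galt2 and Atp6v0b.

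Within 20 kb of Slc6a9 and in the gene, P0 libraries held 3 and 6 H3K27Ac peaks, P14 libraries 14 and 32, P21 libraries 11 and 28, and the wild-type P12 library 33. The short P14 and P21 lists were of about the length of the P0 replicate 1 list (17588 peaks), and the part of depth in these counts was not tested. At the downstream end some of the peaks lie at the neighbouring genes. At Foxn4 the order was the other way, with 2 and 11 peaks at P0, of which those in replicate 2 lay from -11.3 kb to 9.77 kb, and none at P12, P14 or P21 in wild-type retinae. Of the 2 Brg1-deficient P12 libraries, 1 had 2 peaks there, away from the start. Prox1 had 3 and 10 peaks at P0, 5 and 11 at P14 and 2 and 5 at P21.

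At the other genes acetylated regions were few. The one near Lhx1, 12 kb downstream, had heights of 7.38 and 6.68 at P0 and 17.6 and 7.26 in replicate 2 of P14 and P21, and it lies at the start of the neighbouring gene Aatf, 12 kb from that of Lhx1. Tfap2a had no peak at its starts, but a region 2.32 kb downstream of the first start had 3.72 and 5.39 at P0, 4.02 in P14 replicate 2 and 3.5 in P21 replicate 2. Its region 10.4 kb downstream of that start had the opposite order, with no peak at P0, 7.23 in the wild-type P12 library, 5.50 in P14 replicate 2 and 4.37 in P21 replicate 2 (limma, 0.53 ± 0.59 at P14 and 0.65 ± 0.59 at P21, adjusted p = 0.739 and 0.488). A region at -12.6 kb, upstream of Onecut1, had 5.49 and 4.71 at P0, 5.05 in P14 replicate 2 and no peak at P21. The region at the start of Foxn4 (limma, -1.76 ± 0.36 at P21, adjusted p = 0.0547) and that at -1.81 kb from the Tfap2b start (-1.88 ± 0.42, adjusted p = 0.0549) were the lowest in p of those that were lower at P21. The Foxn4 region entered the fit through P0 alone, so only a fall was possible there.

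Brg1 was bound at the start of all 10 genes, as at 58.1% of all placed starts. The height of the start peak was 12.9 at Prox1, 11.5 at Foxn4, 9.84 at Slc6a9, 8.44 at Gad1, 7.56 at Onecut1, 6.75 at Tfap2a, 6.44 at Onecut2, 6.19 at Tfap2b, 5.0 at Lhx1 and 4.31 at Ptf1a, and the median over all bound starts was 5.91. With 1 Brg1 library the order of these heights has no replicate check.

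In the genes and their flanks there were 110 Brg1 peaks. Slc6a9 had 24, Foxn4 19, Prox1 and Tfap2a 16 each, Onecut1 8, Ptf1a and Onecut2 6 each, and Lhx1, Tfap2b and Gad1 5 each. Per 10 kb this was 3.24 at Slc6a9, 3.15 at Foxn4 and 2.48 at Tfap2a, and 0.609 at Onecut2, the lowest. The median of the members was 1.31 peaks per 10 kb, beside 0.238 over all 14706 genes. The stretch counted at Slc6a9 also reaches 4 other coding genes, that at Foxn4 2, and those at Ptf1a and Lhx1 1 each. At Foxn4 a run of peaks covered the gene start and both sides, the longest being 5421 bp long and centred at -9.35 kb, upstream of the start (chr5:114730355-114735775, mm9, height 9.28).

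**Figure D5:**
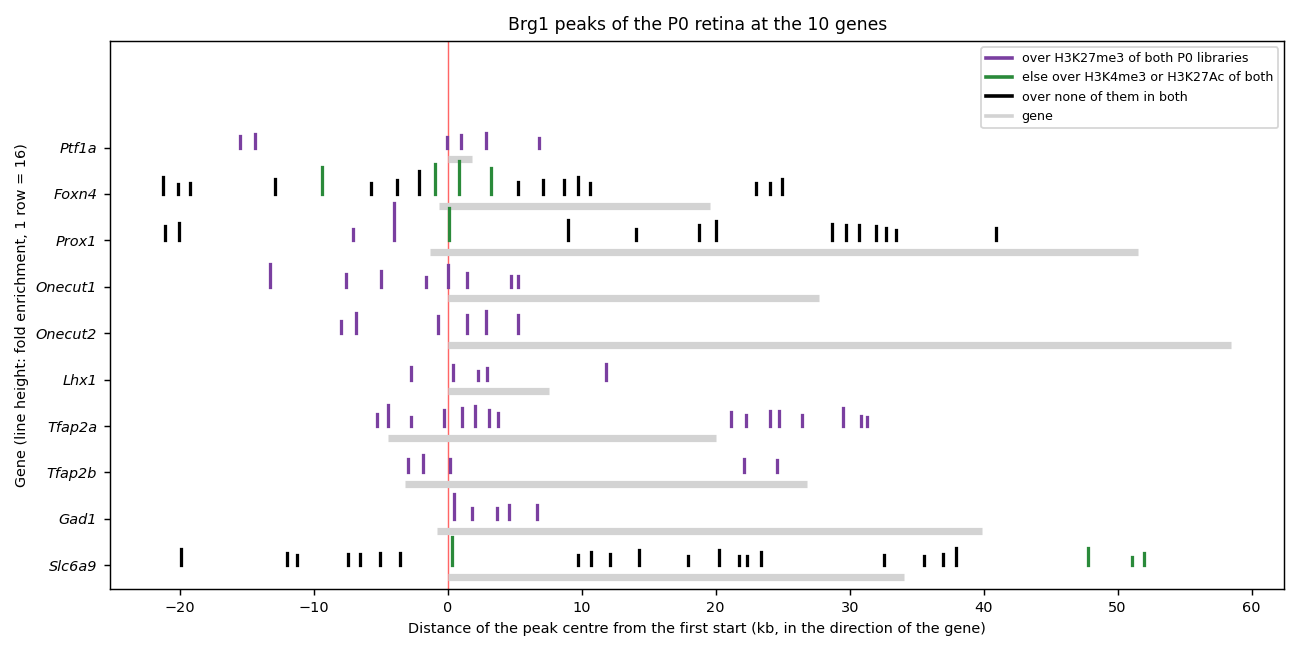
Brg1 peaks of the single P0 library at each gene and 20 kb on each side, by distance of the peak centre from the first start in kb; the height of a line is the fold enrichment (1 row of the axis equals 16), and its colour is purple over H3K27me3 of both P0 libraries, otherwise green over H3K4me3 or H3K27Ac of both, and black over none of them. All Brg1 peaks at 7 genes lay over H3K27me3, and at Foxn4 and Slc6a9 none did.

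The Brg1 peaks at the 10 genes fell on different chromatin. Of the 110 peaks, 53 (48.2%) overlapped H3K27me3 of both P0 libraries, against 16.5% of all 50861 Brg1 peaks. These were all 6 at Ptf1a, 8 at Onecut1, 6 at Onecut2, 5 at Lhx1, 16 at Tfap2a, 5 at Tfap2b and 5 at Gad1, and 2 of 16 at Prox1. None of the 19 at Foxn4 or the 24 at Slc6a9 did. H3K4me3 of both P0 libraries was overlapped by 43 of the 110 (39.1%, against 37.6% of all), which is close to the share of all peaks. H3K27Ac of both P0 libraries was overlapped by 13 (11.8%, against 26.6%). No test was made of these shares, since peaks of 1 gene are not independent.

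At Slc6a9, 3 of the 24 Brg1 peaks of P0 overlapped H3K27Ac of both P0 libraries, 12 overlapped H3K27Ac of both P14 libraries and 12 that of both P21 libraries. Of the 11 peaks over acetylation in all 4 later libraries, 6 had no H3K27Ac peak in either P0 library. Of these 6, the peaks 35533, 36987 and 37967 bp from the first start lie beyond the end of Slc6a9, at Ccdc24 and B4galt2. The peaks at 47795 and 51933 bp, over H3K27Ac at P0 and later, lie at the starts of B4galt2 and Atp6v0b. How many of all Brg1 peaks have acetylation in the later libraries only was not counted, so no excess at Slc6a9 can be read from these 6. Over all Brg1 peaks the shares over H3K27Ac of both libraries were 22.3% at P14 and 20% at P21, lower than the 26.6% at P0. Of the 86 Brg1 peaks at the other 9 genes, 10 overlapped H3K27Ac of both libraries at P0, 3 at P14 and 2 at P21, all of the later ones at Prox1.

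Brg1-deficient retinae were compared with wild-type at P12, with 1 wild-type library for each of H3K4me3 and H3K27Ac and therefore no test. None of the 10 genes was at least 2-fold lower or higher after scaling in every Brg1-deficient library for H3K4me3, where 2.97% of 9847 starts were lower and 1.32% higher, or for H3K27Ac, where 1.16% of 9247 starts were lower and 3.33% higher. The H3K4me3 height, before scaling, was 12.7 in the Brg1-deficient library and 29.2 in the wild-type library at Ptf1a, 18 and 28.9 at Foxn4, and 7.30 and 17.1 at Lhx1. It was 32.5 and 62.1 at Onecut2, 10.6 and 22.4 at Gad1, 3.90 and 7.33 at Tfap2b, and 55.6 and 68.4 at Slc6a9. At Prox1 it was 32.5 and 36.5, at Onecut1 21.8 and 32.9, and at Tfap2a 22.3 and 29.6. The Brg1-deficient library was lower over all starts too, with a median of 36.2 against 53.9. After scaling, the log2 differences of the 10 genes lay between -0.51 (Ptf1a) and 0.39 (Prox1), with a median of -0.13. H3K4me3 covered less of the 10 kb around the start in the Brg1-deficient library at 8 of the 10 genes, against 74.0% of all starts.

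H3K27Ac at P12 was present at few of these starts in either genotype. Prox1 had 12.7 and 10.8 in the Brg1-deficient libraries and 5.09 in the wild-type library (log2 differences of 0.73 and 0.57 after scaling), and Slc6a9 had 17.7 and 21 against 15.1 (-0.07 and 0.17). Onecut2 had 3.72 in 1 Brg1-deficient library and none in the wild-type library. The other 7 genes had no H3K27Ac start peak in any P12 library, among them Ptf1a, Foxn4 and Tfap2b in both genotypes. The SD of the log2 difference between the 2 Brg1-deficient libraries over all starts was 0.47. H3K27me3 covered at least 50% of the 4 kb at the same 9 genes in both wild-type P12 libraries (16.9% of all starts) and in the Brg1-deficient library (18.7%). At Foxn4 this was 100% in all 3, and at Prox1 100%, 100% and 97.1%. The P12 libraries are labelled with another H3K27me3 antibody than those of the other stages, and stage and antibody cannot be told apart there.

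Beyond the 10 genes, 25 other genes of amacrine and horizontal cells were listed, 16 of which could be placed. Of the 13 with enough H3K4me3 to be tested, 3 fell and none rose at P14, and 6 fell and none rose at P21 (limma, adjusted p under 0.05), where 2.88% and 7.94% of all starts were called lower. The median log2 difference of the 13 was -0.71 at P14 and -1.02 at P21. Chat and Slc18a3, neither of them called, have identical values and were counted separately. Slc5a7, the choline transporter of starburst amacrine cells, fell by 1.5 ± 0.33 at P14 (limma, adjusted p = 0.0219) and the difference at P21 was -2.71 ± 0.33 (adjusted p = 0.00027). Pax6, a homeodomain factor of progenitor and amacrine cells, had differences of -1.83 ± 0.30 and -1.90 ± 0.30 (limma, adjusted p = 0.0031 and 0.00156). Lhx9 had -1.32 ± 0.31 and -1.53 ± 0.31 (limma, adjusted p = 0.0274 and 0.00652), and Isl1, a marker of starburst amacrine cells, -1.95 ± 0.31 at P21 (adjusted p = 0.0019). For H3K27Ac, 0 of the 9 tested were called at either stage. H3K27me3 covered 9 of the 16 starts at P0 (15.3% of all starts) and 10 at P14 and at P21 (16% and 16.4%), Pax6 being the one added. Brg1 was bound at 12 of the 16 (58.1% of all). Chat and Slc18a3 are both among these.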

How the data were processed

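Peak lists of 18 ChIP-Seq libraries and island lists of 9 H3K27me3 libraries of mouse retina were used, with groups and replicate numbers from the sample titles. The authors deposited each list per library, with replicates not pooled. The deposited height is the fold enrichment over background, with no scaling between libraries named, and the lists also hold a deposited −log10 q-value for each peak. Per the labels, the submitters' processing notes name build mm9, BWA 0.5.9-r26, Picard 1.65, MACS2 2.0.9, SICER 1.1 and bedtools 2.17.0, without their roles. In the island lists the authors gave positions and a further column that was not used. Library depth is not given in the sources used here, and lists of shallower libraries hold fewer weak peaks.

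RefSeq starts of GRCm38.p6 were shifted by the local offset, from coding genes within 5 Mb, that put most starts within 1 kb of wild-type P0 H3K4me3 peaks. Of 17275 genes with a start on a chromosome with peaks, 14706 were kept, whose offsets from genes within 5 Mb and 2 Mb agreed within 1 kb. Onecut2, with no listed start, was given the lower end of its gene. The offsets of the members differed by at most 295 bp. A factor per library set the median height over features with a peak in every library equal. Stages were then tested with limma 3.58.1 (R 4.3.3) on log2(height + the 5th percentile of peak heights, 3.80 for H3K4me3 and 3.06 for H3K27Ac), with all 6 wild-type libraries of P0, P14 and P21, over features with a peak in at least 2 of them, adjusted over all features at 0.05. This scale understates the change of low peaks. The script was tested on simulated data. Overlaps needed 1 bp. Python 3.11.15, numpy 2.4.6, pandas 2.3.3 and matplotlib 3.10.9 were used. All 10 members are named, and of the other genes at most 4 per comparison, those with the largest log2 difference among the called. Members, gene lists and tests were chosen with earlier results of these data known. Alternatives were another pseudocount, no scaling, other filters and windows, a replicate block and leaving out each library.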

Additional observations from a re-analysis of the deposited data

How the results depend on the processing

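The presence of H3K4me3, H3K27Ac and H3K27me3 at the members' starts changed by less than 1.5 times under a 1 kb window, offsets from genes within 2 Mb, a −log10 q-value of at least 5, and any or 90% coverage. With that q-value the Brg1 peaks around the members numbered 70 in place of 110. The number of members with changed H3K4me3 at P14, 2 as reported, was 0 with no filter and with no scaling, 4 with peaks within 1 kb (Tfap2a and Tfap2b added), 1 with a pseudocount of 1, and 0 to 2 with 1 library left out. Over all starts 376 calls became 102 with no filter, 77 with no scaling, 239 with a peak required in every library, and 118 to 147 without a P0 or P14 library. At P21, 4 as reported, it was 0 with no filter, 1 with no scaling, and 2 to 4 with 1 library left out, and over all starts 889 became 137, 120, and 359 to 526 without a P0 or P21 library. Start acetylation gave 0 members under every alternative run, and over all starts 44 and 49 calls at P14 and P21 with no filter and 24 and 35 with a peak required in every library.

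The members' H3K27Ac regions, 0 at both stages as reported, gave 5 at P14 with a pseudocount of 1, and at P21 5 with no filter, 9 with only the stages compared, 6 with a pseudocount of 1, 7 with the replicate block, and 0 to 9 with 1 library left out, 9 without P14 replicate 2 and 2 without P21 replicate 2. With 1 library left out no member region was called at P14. Over the genome the 0 calls became 2807 at P14 with that pseudocount, and at P21 4467, 7313, 4540 and 7233 in the order above, 7225 and 2894 without those libraries, and 93 and 226 at P14 and P21 with a peak required in every library. The regions called at P21 were those at -18.3, -11.4 and 35.9 kb of Slc6a9 and, with the replicate block, the one at -5.66 kb (all higher), and those at Foxn4, Tfap2b, Onecut1, Onecut2 and Ptf1a (lower). The direction was fixed for the regions at -18.3 and 35.9 kb, which had no P0 peak, and at Foxn4, which had no peak at P14 or P21. Where the setting did not itself change the genes or libraries tested, the cause was not tested.

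Some estimates changed sign, none of them past the threshold. Onecut2 H3K4me3 at P14 was -0.05 with no scaling and -0.26 to 0.44 with 1 library left out, and Gad1 was -0.69 to 0.32. Slc6a9 H3K4me3 was -0.54 to 0.11 at P14 and -0.26 to 0.39 at P21. Onecut1 H3K27Ac at P14 was 0.06 with no scaling and -0.81 to 0.42 with 1 library left out, Gad1 was -0.99 to 0.04 and Slc6a9 -0.26 to 0.63.

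The replicate numbers were not treated as pairs in the main fits. The differences of replicate 2 from replicate 1 correlated across starts with r = 0.13 for H3K4me3 between P0 and P21. For H3K27Ac r was 0.15, 0.06 and 0.49 between P0 and P14, P0 and P21, and P14 and P21, so P14 and P21 shared part of this difference. With the replicate block 5 members were called for H3K4me3 at P21, Prox1 added (1455 calls over all starts), and 0 for start acetylation at both stages. For H3K4me3 at P14 alone, no such fit was made. No paired analysis was possible because the titles of the P0 and P14 libraries share only 1 replicate number there, although the deposited lists of P14 are numbered differently from the titles. The unknown depth limits what a missing peak shows, most of all in the short H3K27Ac lists.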
